A study of Mus musculus with 4 samples.

Results

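The Hedgehog pathway genes described here are the ligand genes Ihh, Shh and Dhh, the receptor and membrane genes Ptch1, Hhip and Smo, and the transcription factor genes Gli1, Gli2 and Gli3. Their members were taken as every promoter, 5′ UTR, exon, intron and 3′ UTR entry that carries the Ensembl identifier of 1 of these 9 genes, with the CpG islands and CpG island shores that overlap the gene from start to end. That gave 79 entries, 37 of gene regions, 16 islands and 26 shores, among 111153 entries of the same 7 classes, and 78 of them had a level in all 4 libraries, against 106689 entries in all. C3H10T1/2 is a mouse cell line from C3H embryos that behaves as mesenchymal stem cells (MSCs). The cells received a non-targeting siRNA (NC) or DNMT1 siRNA (siDNMT1) for 48 h and were left uninduced or were induced for osteoblast (OB) differentiation for 3 days, in complete medium with ascorbic acid, β-glycerophosphate and dexamethasone. Each of the 4 conditions, NC uninduced, siDNMT1 uninduced, NC OB and siDNMT1 OB, was sequenced as 1 library, so no difference below has a replicate error and none was tested. Where levels follow each other in pairs below, NC stands before siDNMT1. The value of an entry is its methylation level, the fraction of methylated CpG cytosines from 0 to 1. No read counts accompany the levels, so the depth behind a level is unknown and no interval could be given. The levels cannot show whether DNMT1 was depleted or whether the cells kept the identity of MSCs, and a change in the mix of cells cannot be told apart from a change within cells. The methods name 2 DNMT1 siRNAs and do not say which was used for these libraries.

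Hedgehog ligands are secreted proteins. Ptch1 is their receptor and holds Smo inactive until a ligand binds, and Smo then passes the signal to the Gli factors, of which Gli2 and Gli3 act early and Gli1 is itself a target of the signal. Ptch1 and Hhip, a decoy that binds ligand at the cell surface, are also targets and limit the signal. In bone, Ihh is made by prehypertrophic chondrocytes and drives chondrocyte growth and osteoblast formation next to cartilage, while Shh patterns the limb and Dhh acts in testis and nerve. DNMT1 is the maintenance methyltransferase, which keeps CpG methylation through cell division.

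The sequences below come from regions described in the results. First are the bases before the start of Ihh and an island inside Ihh that was higher in both siDNMT1 libraries. Next are the bases before the outer and the inner start of Ptch1. Last are exon-free windows of the 2 shores with the largest differences, in Gli1 and Hhip. Each sequence is written 5′ to 3′ on the minus strand of GRCm38, the strand of the gene, with CpG dinucleotides in capitals. The files do not say which of these CpGs were read. The bases before Ihh (chr1:74951673-74951922) hold 24 CpGs in 250 bases and match the RefSeq promoter on GRCm38, as do those before the inner start of Ptch1.
Ihh upstream: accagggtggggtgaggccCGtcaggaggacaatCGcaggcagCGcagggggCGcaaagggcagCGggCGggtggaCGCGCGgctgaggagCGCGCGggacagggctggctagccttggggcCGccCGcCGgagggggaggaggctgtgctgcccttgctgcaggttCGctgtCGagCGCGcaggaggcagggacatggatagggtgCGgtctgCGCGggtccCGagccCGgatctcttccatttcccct
The inner island of Ihh (chr1:74948138-74948436) holds 30 CpGs in 299 bases and overlaps a coding exon.
Ihh inner island: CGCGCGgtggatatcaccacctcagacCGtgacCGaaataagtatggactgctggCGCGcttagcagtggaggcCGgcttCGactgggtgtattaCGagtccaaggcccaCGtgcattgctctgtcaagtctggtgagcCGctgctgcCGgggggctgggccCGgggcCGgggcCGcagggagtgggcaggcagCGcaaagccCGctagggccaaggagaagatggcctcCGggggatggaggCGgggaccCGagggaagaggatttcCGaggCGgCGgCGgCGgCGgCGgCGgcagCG
The outermost start of Ptch1 in GENCODE is preceded by 250 bases with 16 CpGs (chr13:63573599-63573848), and an inner annotated start by 250 bases with 41 CpGs (chr13:63565736-63565985).
Ptch1 outer start: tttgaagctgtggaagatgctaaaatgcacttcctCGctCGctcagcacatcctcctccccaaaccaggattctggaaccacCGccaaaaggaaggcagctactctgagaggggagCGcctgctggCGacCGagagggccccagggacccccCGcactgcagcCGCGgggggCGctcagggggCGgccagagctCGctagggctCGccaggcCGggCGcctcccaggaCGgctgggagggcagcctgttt
Ptch1 inner start: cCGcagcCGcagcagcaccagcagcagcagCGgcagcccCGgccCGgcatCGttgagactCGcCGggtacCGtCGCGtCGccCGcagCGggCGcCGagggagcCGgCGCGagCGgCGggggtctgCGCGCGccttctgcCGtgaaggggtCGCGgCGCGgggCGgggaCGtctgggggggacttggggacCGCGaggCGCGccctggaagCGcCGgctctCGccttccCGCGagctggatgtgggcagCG
The window from the Gli1 shore (chr10:127339020-127339319) holds 9 of its 35 CpGs and that from the Hhip shore (chr8:80056610-80056909) holds 8 of 50. Each window is the 300 bases outside annotated exons with the most CpGs in its shore, chosen without regard to the levels.
Gli1 shore: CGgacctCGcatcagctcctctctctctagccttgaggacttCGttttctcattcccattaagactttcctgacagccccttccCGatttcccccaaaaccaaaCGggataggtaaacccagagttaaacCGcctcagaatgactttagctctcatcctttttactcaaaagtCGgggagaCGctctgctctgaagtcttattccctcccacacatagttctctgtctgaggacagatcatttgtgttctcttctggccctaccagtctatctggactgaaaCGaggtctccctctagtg
Hhip shore: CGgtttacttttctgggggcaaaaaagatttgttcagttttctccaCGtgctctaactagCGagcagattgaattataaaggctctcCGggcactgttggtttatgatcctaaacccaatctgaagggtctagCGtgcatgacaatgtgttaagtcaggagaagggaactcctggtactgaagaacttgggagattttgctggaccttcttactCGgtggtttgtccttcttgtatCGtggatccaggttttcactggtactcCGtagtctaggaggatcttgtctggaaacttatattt

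Promoters of the Hedgehog genes were mostly of low methylation, apart from Dhh. The promoter level of Dhh had a mean of 0.548 over the 4 libraries, and that of Gli1 0.191. Smo (0.143), Gli2 (0.133) and Ihh (0.131) came next, Hhip (0.0681) and Ptch1 (0.0677) lower, and Gli3 (0.0509) lowest. Over the 4 libraries the ranges of Smo, Gli2 and Ihh overlapped, as did those of Hhip and Ptch1 and those of Hhip and Gli3, whereas Dhh and Gli1 stood apart from all others. Shh had no promoter or 5′ UTR entry. Its window of 2000 bases before the GENCODE start holds 12 CpGs, against a median of 15 in the windows of protein-coding genes without a promoter level in all libraries and 39 in those with one. The other member windows held between 31 CpGs at Dhh and 69 at Gli2. Taken over all classes, the entries spanned a wider range than the 8 promoters, which are far fewer. Among the entries in all 4 libraries the lowest was 0.00880 at a shore of Ptch1, and the highest was 0.908 at an island of Dhh. Member islands had a median level of 0.145 in the NC uninduced library, above the 0.0323 of all 14095 islands, and member promoters 0.137, below the 0.191 of all 20152 promoters. Many member islands lie inside the gene, away from its GENCODE start. Those across the start were at 0.0160 (Smo), 0.0166 (Gli3), 0.0175 (Gli2), 0.0705 (Hhip), 0.158 (Ihh) and 0.321 (Ptch1) in that library.

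**Figure D1:**
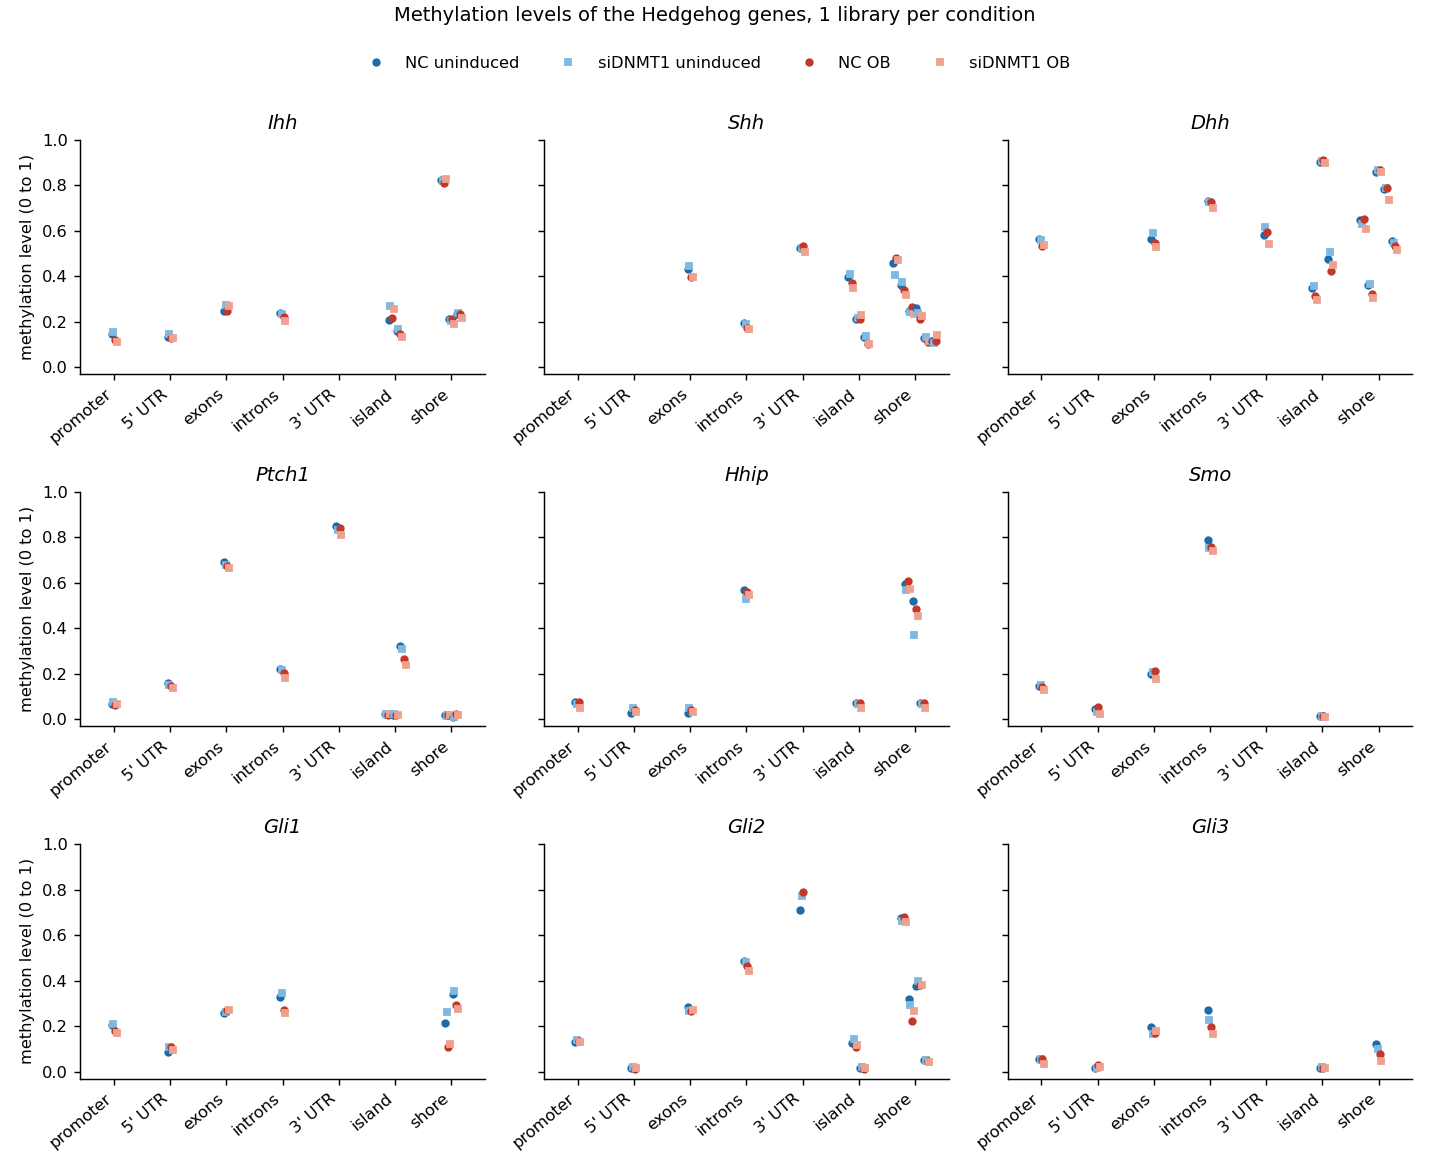
Methylation level (0 to 1) of each listed entry of the 9 genes by class of region, with 1 point per library. Dhh entries lie from 0.294 to 0.908, while the promoter of Gli3 stays below 0.06.

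Before OB induction, siDNMT1 and NC differed little at the Hedgehog genes, and 1 shore of Hhip was the exception. That shore was the only one of 78 entries with a difference of at least 0.1, a share of 1.28%, against 1.46% of all 106689 entries. Among entries with a mean level from 0.2 to 0.8, where there is room for such a difference, it was 1 of 40, against 2.29% of all. The level was lower with siDNMT1 at 36 entries and higher at 42, whereas 54.6% of all entries were lower. The median difference was 0.00108, against -0.00115 over all entries.

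After OB induction, the siDNMT1 library lay below the NC library at most Hedgehog entries, by small amounts. The level was lower at 57 of 78 entries, against 65.7% of all, and the median difference was -0.0114, against -0.00511 over all entries. None of the 78 differed by 0.1 or more, against 2.03% of all entries, and none of the 40 of intermediate level, against 3.44%. The differences ran from -0.0519 at the 3′ UTR of Dhh to 0.0450 at a shore of Gli2. The 2 siDNMT1 comparisons share no library. Of the 78 entries, 29 were lower with siDNMT1 in both, 14 higher in both and 35 went opposite ways. Both siDNMT1 libraries lay below both NC libraries at 14 entries, a share of 17.9% against 20.4% of all, and above them at 4, against 9.89%. The siDNMT1 OB library had the lowest median level over all entries, 0.233, against 0.245 with NC OB, 0.258 with siDNMT1 uninduced and 0.261 with NC uninduced, and the part of this shift in the Hedgehog differences was not tested. Centring each library on the median of each class moved the median after induction to -0.00171. Both siDNMT1 libraries then lay below both NC libraries at 7 entries, against 12.7% of all, and above them at 4, against 11.9%.

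OB induction went with lower levels at about as many Hedgehog entries as elsewhere in the NC libraries, and at more in the siDNMT1 libraries. The labels give 3 days of induction for the OB libraries and no matching culture time for the uninduced ones. A difference with induction therefore cannot be told apart from one with longer culture. With NC, 49 of 78 entries were lower in the OB library, against 63.4% of all, with a median of -0.00507 (-0.00363 over all). With siDNMT1, 65 were lower, against 73.4% of all, with a median of -0.0174 (-0.00808 over all). A difference of at least 0.1 occurred at 1 entry with NC, against 2.12% of all, and at 1 with siDNMT1, against 3.27%, and in both cases it was the same shore of Gli1. This shore has a mean level under 0.2, so that none of the 40 entries of intermediate level changed by that much, against 3.55% of all with NC and 5.54% with siDNMT1. The 2 OB comparisons also share no library. Both OB libraries lay below both uninduced libraries at 40 entries (51.3%), against 39.3% of all, and above them at 5, against 8.47%. Centred on class medians, 24 entries lay below, against 17.6% of all, and 27 above, against 39.2% of all, so that the balance of lower to higher turns with the scale of the libraries. The medians of both OB comparisons then changed sign, to 0.00230 with NC and 0.000795 with siDNMT1. Before centring, Shh and Dhh each had 7 of 12 entries below, Ptch1 6 of 10, Gli2 6 of 10, Ihh 5 of 9 and Hhip 0 of 8. Entries of 1 gene share cytosines, and among the islands and shores 17 pairs overlap.

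**Figure D2:**
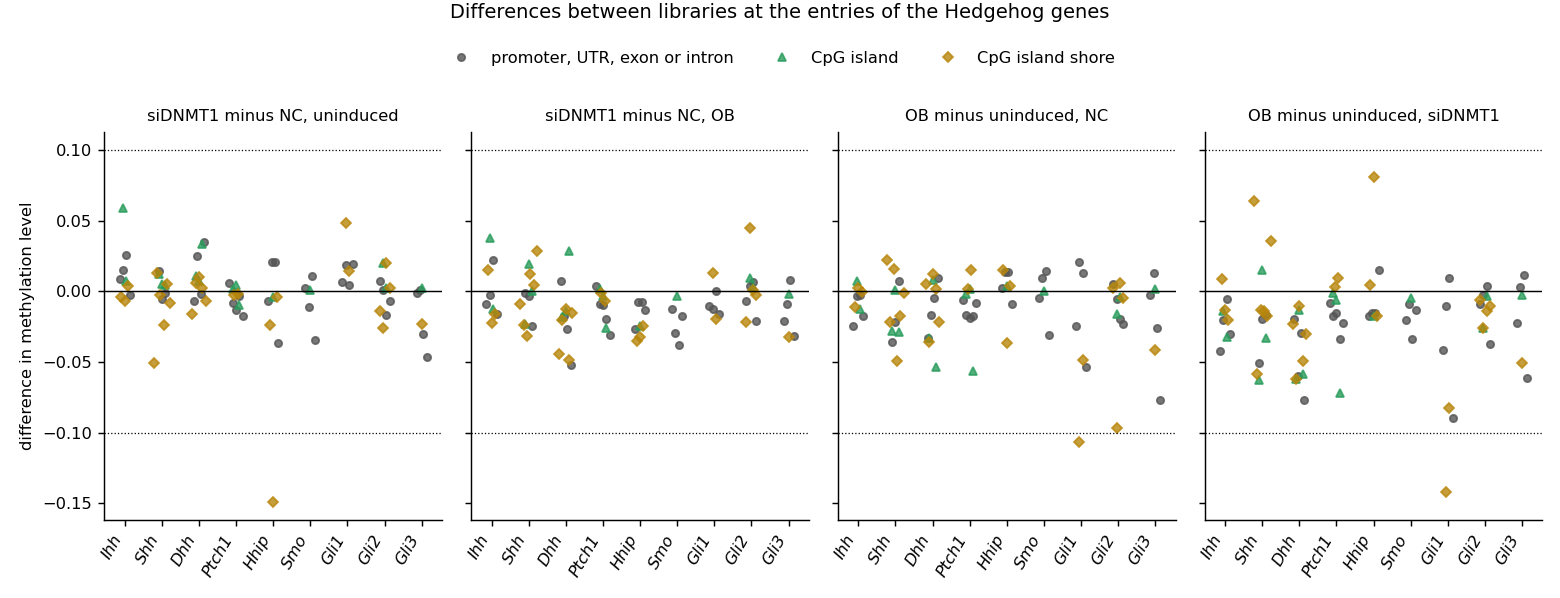
Difference in methylation level for the 78 entries with a level in all 4 libraries, by gene, in 4 comparisons, with dotted lines at a difference of 0.1. A shore of Hhip at -0.149 stands alone before induction, and a shore of Gli1 at -0.107 and -0.142 in the 2 OB comparisons.

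Ihh, the ligand gene that acts between cartilage and bone, had 9 entries, and its start lies in a CpG island of 1462 bases with 150 CpGs. The promoter was at 0.144 and 0.152 before induction and at 0.119 and 0.110 after it. Both OB libraries were thus the lower ones, with differences of -0.0247 for NC and -0.0420 for siDNMT1, and the siDNMT1 library was the higher one before induction and the lower one after it. Among all promoters, 48.7% differed between siDNMT1 and NC at least as much before induction and 53.1% after it. Centred on class medians, the siDNMT1 difference after induction was 0.00122, on the other side of 0, and the OB differences were -0.00757 and -0.0181. The 5′ UTR followed the promoter, with 0.133, 0.147, 0.129 and 0.127. The body gave another picture. The inner island printed above was at 0.209 and 0.268 before induction and at 0.216 and 0.254 after it, so that both siDNMT1 libraries were the higher ones. Among all islands 1.62% differed at least as much as its 0.0588 before induction, and among islands with a mean level from 0.2 to 0.8, as here, 4.999%. The exons, which this island overlaps, had 0.247 and 0.272, then 0.244 and 0.267. The 2 shores between the islands ranged from 0.190 to 0.237 over the libraries, and the shore downstream of the inner island was highly methylated, from 0.811 to 0.826. The introns were lowest in the siDNMT1 OB library, at 0.202, and lay between 0.218 and 0.236 in the others. Of the 20151 other promoters, 180 were within 0.02 of Ihh in all 4 libraries, and the nearest were Snx18, Fblim1 and Sirt5, with a greatest gap of 0.00587, 0.00673 and 0.00714.

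Shh, the ligand that patterns limb and neural tube, was described by 12 entries within the gene. Its exons were at 0.431 and 0.445 before induction and at 0.395 and 0.394 after it. An island inside the gene, 1080 bases from 28464361 on chromosome 5, had 0.131 and 0.136, then 0.102 and 0.103. At both, the OB libraries were the lower ones and siDNMT1 made a difference of at most 0.0142. The shore at the 3′ end differed from these, with 0.456 and 0.405 before induction and 0.478 and 0.469 after it, the OB libraries being the higher ones. The shore across the Shh start had 0.115 and 0.106, then 0.114 and 0.142, with the siDNMT1 OB library highest.

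Dhh, the third ligand gene, had the highest promoter level of the members. All 12 of its entries were lower in the siDNMT1 OB than in the siDNMT1 uninduced library, as were 73.4% of all entries. Its promoter had 0.565 and 0.558 before induction and 0.531 and 0.538 after it. The island over a coding exon near its start (chromosome 15, 98897983 to 98898204) had 0.474 and 0.507, then 0.420 and 0.449, so that the OB differences were -0.0537 and -0.0588. Its 3′ UTR was at 0.583 and 0.617 before induction and at 0.592 and 0.540 after it. The siDNMT1 library was thus highest before and lowest after induction, and 16.7% of 4354 3′ UTRs differed between siDNMT1 and NC in the OB libraries at least as much. An island in its coding exons, from 98894823 to 98895074, stayed between 0.895 and 0.908.

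Ptch1, the receptor gene, holds 3 islands of very unequal level. The island across the outermost GENCODE start (chromosome 13, 63572425 to 63573732, 112 CpGs) was at 0.321 and 0.311 before induction and at 0.265 and 0.239 after it. Both OB libraries lay below both uninduced ones, with differences of -0.0561 and -0.0719, and 5.63% and 3.82% of all islands differed as much. Most islands lie near 0, and among the 3541 islands with a mean level from 0.2 to 0.8, as here, the shares were 19.03% and 13.02%. The island across the inner start (63563088 to 63566182, 254 CpGs) had 0.0224 and 0.0236, then 0.0203 and 0.0223, and the island between the starts stayed from 0.0179 to 0.0243. The island across the outermost start was thus the highest of the 3 in every library. The promoter entry of Ptch1 had 0.0684 and 0.0744, then 0.0621 and 0.0660. The shore upstream of the outermost start, outside the gene and not counted among the members, had 0.667 and 0.765, then 0.722 and 0.590, so the start behind the promoter entry is uncertain. The exons (0.665 to 0.694) and 3′ UTR (0.810 to 0.850) were highly methylated and were lower with siDNMT1 both times, with differences of -0.0171 and -0.0307 at the 3′ UTR.

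The letters GACCACCCA, a consensus for binding of Gli factors, were searched on both strands. No member window of 2000 bases before a GENCODE start holds them, and 1.62% of 21938 protein-coding windows do. In the 16 member islands and 26 member shores 3 sites were found, of which 2 lie in Ptch1. They fall in 4 of these entries, because 1 site lies in 2 overlapping shores. The Ptch1 site in the outer start island (chr13:63573465-63573473) lies in an exon, 129 bases from the outermost start, and 0.571% of 14354 islands hold such letters. The other Ptch1 site (chr13:63566435-63566443) lies in both shores upstream of the inner start, whose levels ran from 0.00880 to 0.0253, and the third lies in a shore of Gli2 (chr1:119046546-119046554). Such letters occur in 2.01% of 17433 shores. The sites are shown with 10 bases on each side and the consensus in capitals, to set them beside these levels.
Ptch1 outer island site: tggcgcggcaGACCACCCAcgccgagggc
Ptch1 inner shore site: aaagtagagaGACCACCCAggtaggcaac
Gli2 shore site: tggggctgagGACCACCCAggcaattcat

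Hhip, the decoy receptor gene, was the member with the widest gap between siRNAs. Its shore from 80055894 to 80057893 on chromosome 8, which begins 113 bases inside the gene and holds coding exon, was at 0.522 and 0.373 before induction and at 0.486 and 0.454 after it. The siDNMT1 uninduced library was the lowest and the siDNMT1 OB library the next. A difference as large as this -0.149 was found at 0.779% of the 16439 shores and at 1.09% of those with a mean level from 0.2 to 0.8, and it was -0.148 after centring. The shore that overlaps it, from 80055402, had 0.593 and 0.569, then 0.608 and 0.574, a difference of -0.0240 before induction. The introns as a whole had 0.567 and 0.530, then 0.558 and 0.545. At the promoter the levels were 0.0753 and 0.0688, then 0.0774 and 0.0511. Before centring, both siDNMT1 libraries lay below both NC libraries at 6 of 8 Hhip entries, against 20.4% of all entries. Centring reduced such entries over all 78 members from 14 to 7, against 12.7% of all. Some of the 6 Hhip entries overlap each other, and 1 is a shore whose levels equal those of the start island in every library. The 5′ UTR and exon entries of Hhip equal each other likewise, at 0.0282 and 0.0493, then 0.0422 and 0.0342. These 2 entries were higher with siDNMT1 before induction.

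Smo, the membrane protein that Ptch1 restrains, had a start island of 109 CpGs at 0.0160 and 0.0169, then 0.0159 and 0.0123. Its promoter stayed between 0.130 and 0.150 and its 5′ UTR between 0.0247 and 0.0538. The introns were highly methylated, with 0.788 and 0.753 before and 0.757 and 0.740 after induction, and lay below NC with siDNMT1 both times. All 5 Smo entries were lower with siDNMT1 in the OB libraries, with differences from -0.0376 to -0.00356, where 65.7% of all entries were lower.

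Gli1, the factor that is itself a Hedgehog target, had the largest OB difference. The shore from 127337365 to 127339364 on chromosome 10, which begins 2610 bases inside the gene and holds coding exon, was at 0.216 and 0.264 before induction and at 0.109 and 0.122 after it. The OB differences were -0.107 with NC and -0.142 with siDNMT1, and -0.0879 and -0.112 after centring. Among all shores, 2.38% and 1.72% differed as much. The other Gli1 shore, nearer the start, had 0.342 and 0.356, then 0.294 and 0.274, the introns 0.326 and 0.346, then 0.273 and 0.256, and the promoter 0.204 and 0.211, then 0.180 and 0.169. At these 4 entries the uninduced and OB libraries did not overlap. The exons went the other way by a little, with 0.256 and 0.261, then 0.269 and 0.270, and the 5′ UTR, from 0.0883 to 0.109, showed no separation. Before induction all 6 Gli1 entries were higher with siDNMT1, by 0.00450 to 0.0480, and after it 4 of 6 were lower. Of all entries, 54.6% were lower with siDNMT1 before induction and 65.7% after it. Both shores lie inside the gene, so they and its exon and intron entries can share cytosines.

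**Figure D3:**
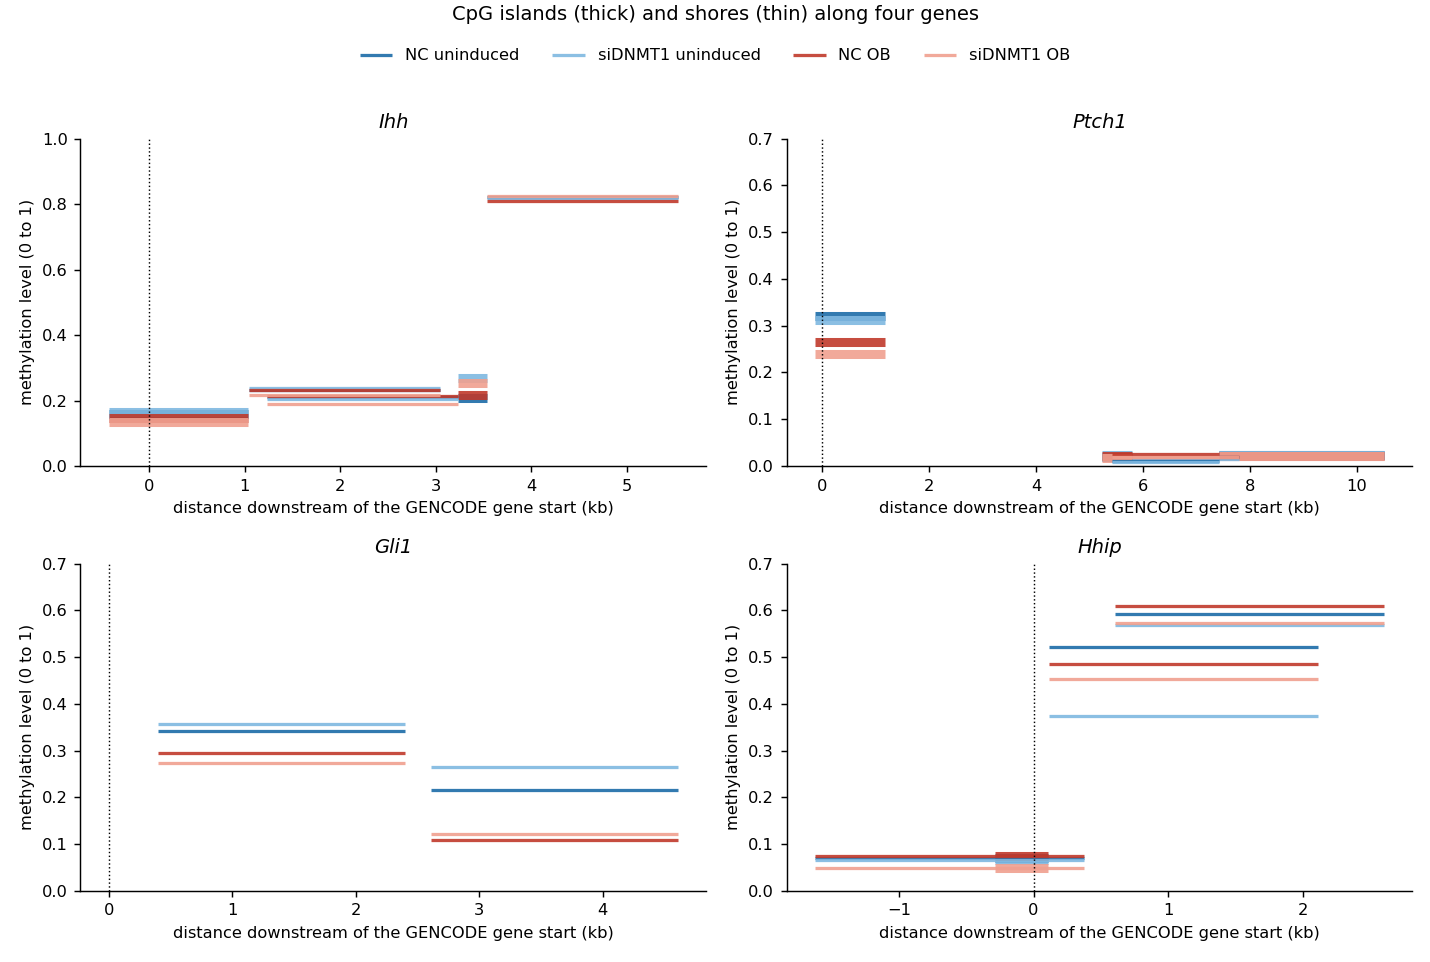
Methylation level of the CpG islands (thick lines) and shores (thin lines) of Ihh, Ptch1, Gli1 and Hhip against distance from the GENCODE gene start in kb, with 1 colour per library. At each of the 2 Gli1 shores both OB libraries (0.109 to 0.294) lie below both uninduced libraries, and 1 Hhip shore is lowest in the siDNMT1 uninduced library (0.373).

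Gli2 and Gli3, the factors that pass the signal on, had low levels at their starts. The Gli2 start island had 0.0175 and 0.0196, then 0.0132 and 0.0163, and that of Gli3, with 198 CpGs, 0.0166 and 0.0190, then 0.0179 and 0.0163. Away from the start, the Gli2 shore with the consensus letters had 0.320 and 0.293 before and 0.223 and 0.268 after induction, so the OB difference was -0.0970 with NC and -0.0259 with siDNMT1. The Gli2 introns had 0.488 and 0.481, then 0.465 and 0.444. The 3′ UTR of Gli2 was the entry without a level in all libraries, with 0.711 and 0.774, then 0.791 in the NC OB library alone. At Gli3 the introns had 0.272 and 0.226, then 0.196 and 0.164, and the shore after the start 0.121 and 0.0983, then 0.0794 and 0.0474. In both the siDNMT1 library was the lower one each time and the OB libraries lay below the uninduced ones. The intron difference between the NC libraries, -0.0769, was matched by 3.33% of 19757 introns. The Gli3 promoter had 0.0576, 0.0565 and 0.0552, then 0.0341 in the siDNMT1 OB library.

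Other genes of the pathway were read at their promoters, with 31 of 34 listed in all libraries. None of the 31 differed by 0.1 or more between siDNMT1 and NC, before or after induction, against 299 and 441 of 20152 promoters in all. Their medians were -0.00197 before and -0.00366 after induction, against -0.000713 and -0.00371 over all promoters. Both OB libraries lay below both uninduced libraries at 21 of the 31 promoters and at 6 of the 8 member promoters, against 40.1% of all promoters. They lay above them at none of either list, against 8.47% of all promoters. The median over all promoters was itself lower in the OB libraries, 0.174 and 0.164 against 0.191 and 0.188. Centred on it, the OB differences with NC turned positive at the member promoters of Ptch1 (0.0108), Smo (0.0120) and Gli3 (0.0147), and stayed negative at Ihh, Dhh (-0.0162) and Gli1 (-0.00748). With siDNMT1, the centred OB differences stayed negative only at Ihh (-0.0181) and Gli1 (-0.0175), and that of Dhh was 0.00425. A further list holds targets of the signal and genes of the loop between Ihh and the parathyroid hormone related protein. Before centring, both OB libraries lay below both uninduced libraries at 9 of its 10 promoters. At some of these the fall was smaller than that of the median over all promoters, and at others it was larger. The Bcl2 promoter, with OB differences of -0.0102 for NC and -0.00518 for siDNMT1, was among the smaller. The median OB difference of this list was -0.0357 with NC and -0.0290 with siDNMT1, against -0.00320 and -0.00654 over all promoters. The promoter of Pthlh, which encodes that protein, was at 0.545 and 0.536 before induction and at 0.450 and 0.439 after it. Foxf2, a forkhead target gene, had 0.403 and 0.406, then 0.320 and 0.279, and the cyclin gene Ccnd2 0.354 and 0.395, then 0.308 and 0.279. Both fell by at least 0.1 with OB induction in the siDNMT1 libraries (-0.127 and -0.116), the only 2 of the 31 to do so in either OB comparison. Over all 20152 promoters, 437 differed by that much with NC and 677 with siDNMT1. Pth1r, the receptor gene of the loop, had 0.388 and 0.381, then 0.354 and 0.327. The exception was Foxl1, with 0.566 and 0.525, then 0.589 and 0.544. Of 13 transduction genes, 9 had promoter levels below 0.05 in every library, among them Sufu, the repressor of Gli factors, with a lowest level of 0.0413 and a highest of 0.0464. Spop, which marks Gli factors for breakdown, had 0.372 and 0.401, then 0.390 and 0.404, and Grk2, a kinase acting on Smo, from 0.566 to 0.602. Hhat, which lipidates the ligands, had 0.390 and 0.380, then 0.321 and 0.336.

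**Figure D4:**
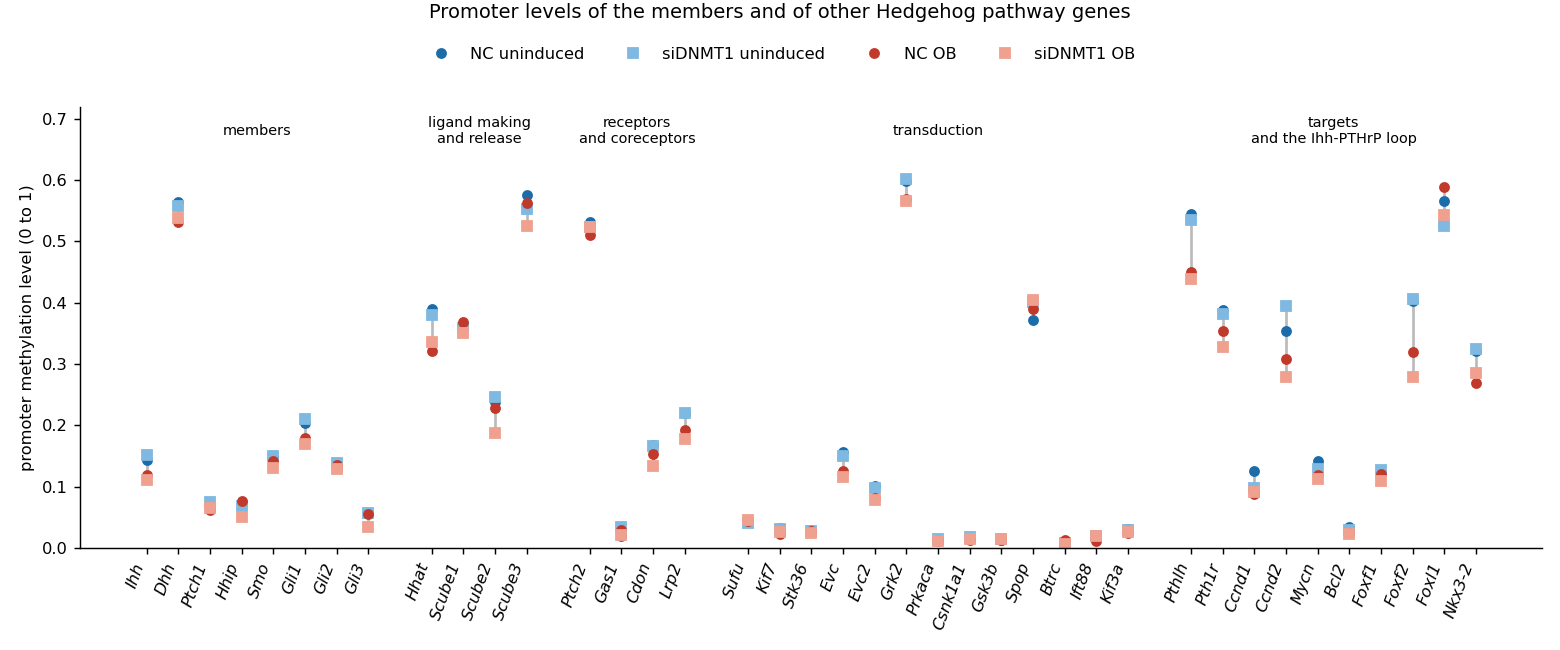
Promoter methylation level (0 to 1) of the 8 member genes with a promoter entry and of 31 other pathway genes in 4 lists, with 1 point per library and a line over their range. In the list of targets the OB points of Pthlh (0.450 and 0.439) lie below the uninduced points (0.545 and 0.536).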

How the data were processed

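DNA of 4 C3H10T1/2 cultures was bisulfite-sequenced, 1 library per condition. The series calls the assay reduced representation bisulfite sequencing, but the protocol describes sonication and names no restriction digest, and 718 listed promoter windows hold no CCGG. Per the labels and the methods, the authors used CASAVA, Trimmomatic (0.36) and Bismark (0.16.3) on mm10. They deposited the methylated fraction of CpG cytosines per region. The coverage minimum and weighting are not given in the sources used here. Repeats, listed by family without position, were not used.

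Identifiers, symbols and starts came from GENCODE vM21, sequences from GRCm38. All 14354 islands start and end with CG there when starts are counted from 0. Positions are printed from 1. Differences were taken over entries with a level in all 4 libraries, and a change was counted from 0.1, with no test. Changes are set beside the share over all entries of the same 7 classes, of which 106689 were listed in all libraries. The libraries listed 158494 (NC uninduced), 159705 (siDNMT1 uninduced), 158585 (NC OB) and 155398 (siDNMT1 OB) entries, repeats included. Without read counts the precision of a level is unknown.

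Named were all member promoters, entries with a difference of at least 0.1 in any comparison, those that differed by at least 0.05 and the same way under siDNMT1 before and after induction (none), the islands and shores of Ihh, and the 3 promoters nearest to Ihh. Other entries and pathway genes were named after their values were seen. Members, lists and thresholds were chosen with earlier results of these data known. The counting was tested on simulated data for siDNMT1 minus NC, uninduced, over 20152 promoters, with 200 observations for each. All 200 of 200 promoters lowered by 0.3 were recovered. That fall is larger than any member difference and the real depth is unknown, so the run checks the counting only. Python 3.11.15, pandas 2.3.3, numpy 2.4.6 and matplotlib 3.10.9 were used.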

Additional observations from a re-analysis of the deposited data

Results flagged for a closer look

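Of the 78 entries, 3 moved at least 0.025 in opposite directions under the same contrast in uninduced and OB cells or with the 2 siRNAs. With 1 library per condition these differences were not tested. The 3′ UTR of Dhh was higher with siDNMT1 before induction, with a difference of 0.0346, and lower after it (-0.0519), which leaves -0.0865 between the differences. The Gli2 shore from 119045928 to 119047927 was lower with siDNMT1 before induction, with a difference of -0.0261, and higher after it (0.0450), which leaves 0.0711. The Hhip shore from 80055894 to 80057893 was lower in OB than in uninduced cells with NC, with a difference of -0.0363, and higher with siDNMT1 (0.0808), which leaves 0.117. Over all 106689 entries such opposite moves occurred at 4.01% for the siDNMT1 contrast, which gave 2 of the 78 Hedgehog entries, and at 3.42% for the OB contrast, which gave 1.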

How the results depend on the processing

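Counted from 0.05, there were 3 changed entries for siDNMT1 before induction, 1 after it, 6 for OB induction with NC and 16 with siDNMT1. Counted from 0.2, there were 0 in each. With gene regions alone, the 36 entries gave 0 in each comparison. Centring each library on class medians left 0 for OB induction with NC and gave 2 with siDNMT1, 1 lower and 1 higher, and moved the medians to -0.00171 for siDNMT1 after induction, 0.00230 for OB induction with NC and 0.000795 with siDNMT1. Adding islands and shores up to 2 kb upstream gave 1 for siDNMT1 after induction and 2 for OB induction with siDNMT1, the added entry being the shore upstream of Ptch1. Without Hhip, a setting chosen after seeing the data like the next, the count before induction was 0, and without Gli1 both OB counts were 0. Of 72 alternative values of the counts and medians, 52 stayed within 1.5 times the count or within 0.005 of the median, and 20 moved. Leaving out Ihh, counting equal Hhip entries once and using entries listed in the 2 compared libraries were among the settings that moved none. No paired analysis was possible because each condition has 1 library. Without read counts the error of a single level is unknown.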
